A study of Mus musculus with 20 samples.

Results

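The antioxidant genes described here are Nfe2l2, which encodes the transcription factor NRF2, its repressor Keap1, and 8 NRF2 target genes: Nqo1, Srxn1, Gclc, Gclm, Txnrd1, Hmox1, G6pdx and Slc7a11. They were found by gene symbol in the deposited count tables, 10 of 50559 genes. All 10 were present, and 9 of the 10 were among the 14333 genes that reached a level of 1 CPM (reads on the gene relative to all reads counted in the library) in at least 5 libraries and were tested. Slc7a11 did not reach that level.

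RNA was sequenced from 20 separate mice, 5 with each of 3 kinds of liver tumor (Aldafermin+MYC, FGF19+MYC or sgTrp53+MYC) and 5 controls, whose livers are called Liver. The mice were female wild-type C57BL/6J mice that received plasmids by hydrodynamic tail vein injection at 6 to 8 weeks of age. Tumors of all 3 models carried human MYC under the EF1a promoter, inserted by the Sleeping Beauty transposase, combined with human FGF19, with its engineered analog Aldafermin, or with a CRISPR plasmid carrying a guide against Trp53. Control livers are labelled non treated, whereas the study's methods describe an RFP plasmid, and the sgTrp53+MYC tumors are known as such from their titles only. The transgenes enter some hepatocytes of an otherwise wild-type liver, and a tumor library also holds the RNA of other cells.

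NRF2 is held in the cytoplasm by KEAP1, which directs it to degradation. Oxidants and electrophiles modify KEAP1, NRF2 then accumulates and binds, with a small MAF protein, to antioxidant response elements of its target genes. The targets serve glutathione synthesis, the thioredoxin system, quinone and heme breakdown and NADPH supply, and in liver many of them are also part of the detoxification program of hepatocytes. NRF2 activity is set largely at the protein level, which was not measured here.

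Gene counts summed to 18004977 in the smallest library and 66354724 in the largest. The 5 sgTrp53+MYC libraries, with at least 54042455 counted reads each, came in a table of their own, so table and model cannot be told apart. Reads ambiguous between genes made up 11.1 to 14.6% in these libraries and 3.03 to 6.30% in the others. Unaligned reads made up 5.34 to 6.82% and 15.3 to 34.0%. Trp53 itself was at 46.7 ± 22.5 CPM (SD, n = 5) in sgTrp53+MYC tumors, 138 ± 32.4 with Aldafermin+MYC, 139 ± 17.8 with FGF19+MYC and 32.8 ± 2.98 in livers. Hepatocyte markers were present in every group, and all 6 of 6 fell in each tumor model against Liver. Their summed level was 177790 to 221090 CPM in livers and 3658 to 27893 CPM in tumors, led by Alb. In the other marker lists, 4, 3 and 4 of 6 endothelial markers (led by Cdh5) fell in Aldafermin+MYC, FGF19+MYC and sgTrp53+MYC tumors, 1 of 6 stellate and fibroblast markers (led by Col1a1) rose and 3 fell in each, and 1, 2 and 2 of 3 erythroid markers (led by Hbb-bs) fell. Of 4 bile duct markers (led by Krt19), 2 fell in Aldafermin+MYC and 1 rose in sgTrp53+MYC tumors, where their sum was 311 CPM in replicate 2 and at most 3.98 CPM in the other 4, against 7.57 to 18.3 CPM in livers. Of 3 tested neutrophil markers (led by Csf3r) 1 rose in Aldafermin+MYC tumors, and the 1 tested T and NK cell marker, Nkg7, was called in none. Among all genes tested, 38.4%, 36.9% and 36.9% rose and 31.9%, 32.9% and 33% fell in Aldafermin+MYC, FGF19+MYC and sgTrp53+MYC tumors. Levels below are CPM scaled by the TMM method of edgeR. In bulk tissue, fewer cells of a type and less RNA per cell cannot be told apart. Nothing in the labels pairs mice across groups.

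Against control livers, 8 of 9 tested NRF2 genes differed in Aldafermin+MYC tumors, where 70.3% of all genes did, 7 of 9 in FGF19+MYC tumors, with 69.7% of all genes, and 7 of 9 in sgTrp53+MYC tumors, with 69.9% (edgeR's quasi-likelihood test, Benjamini-Hochberg adjusted p under 0.05). Counts by direction depend on the scaling, as given further on for library totals. With TMM factors, higher in Aldafermin+MYC tumors were 2 of 9 (38.4% of all genes) and lower were 6 (31.9%). With FGF19+MYC, 2 rose (36.9%) and 5 fell (32.9%), and with sgTrp53+MYC, 1 rose (36.9%) and 6 fell (33%). Over the 9 genes the median log2 fold change was -0.60, -0.63 and -0.42 in the 3 models, beside 0.13, 0.06 and 0.07 over all genes. All 3 comparisons used the same 5 livers. Every tumor library was apart from every liver for 6 of 9 genes in each model, and the share of all genes with such separation was 58.8%, 62.5% and 56.2%.

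**Figure D1:**
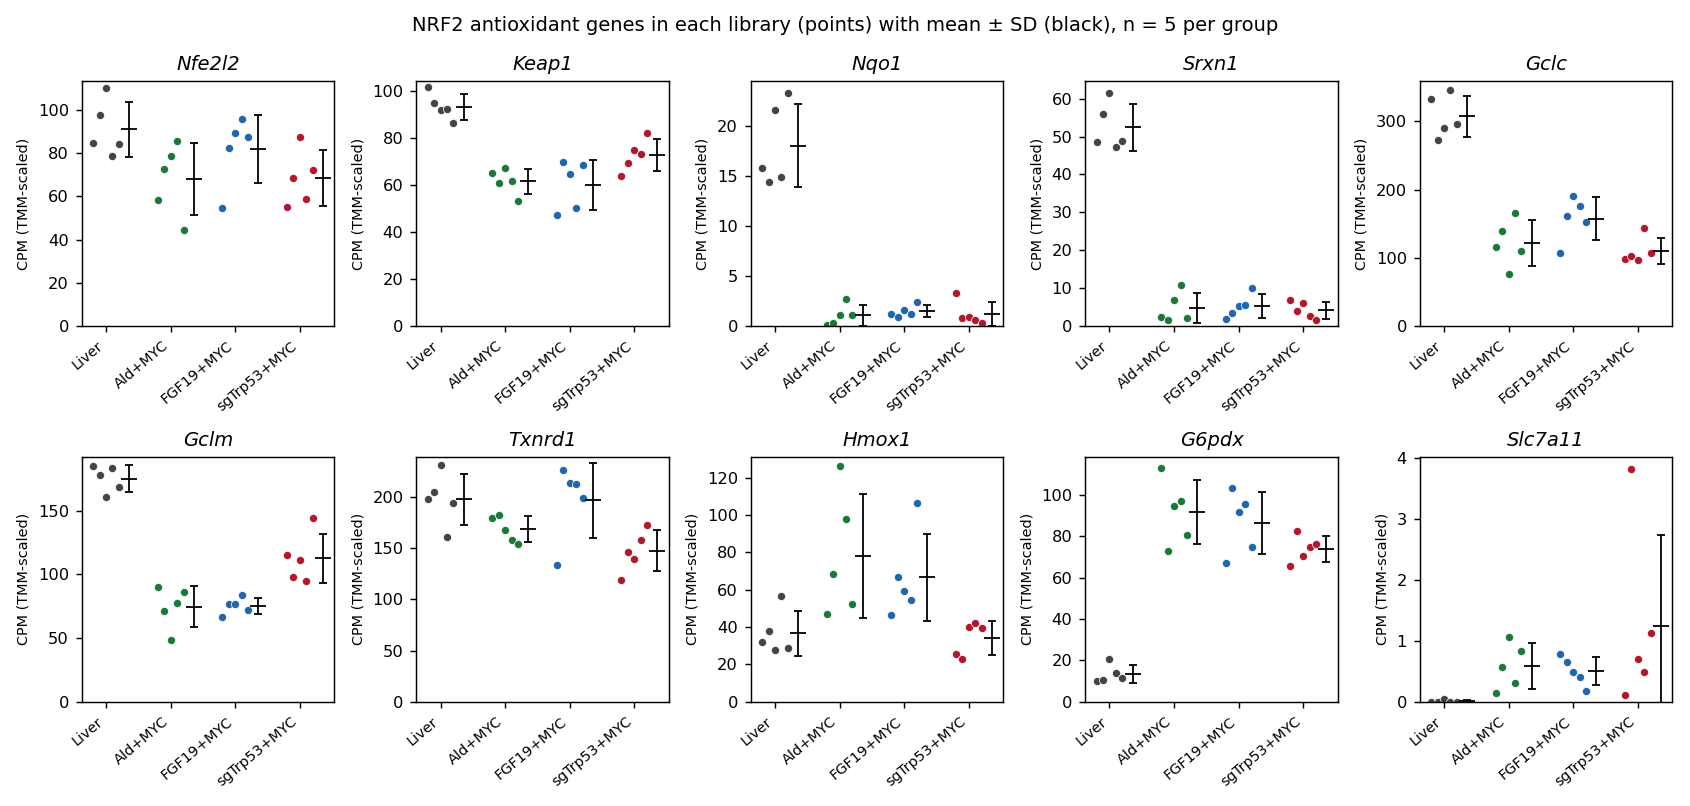
Level of each NRF2 gene in every library (points, TMM-scaled CPM on linear axes starting at 0, a separate axis per gene), with the group mean and SD in black (n = 5 per group). Nqo1, Srxn1, Gclc, Gclm and Keap1 were below all livers in every tumor library and G6pdx above all livers, while Nfe2l2, Txnrd1 and Hmox1 overlapped. The Keap1 direction, and that of Gclm in sgTrp53+MYC tumors, turned when only library totals were used for scaling.

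Among the 9 tested genes, the largest differences were at Nqo1 and Srxn1. Nqo1 encodes a quinone reductase that is a standard readout of NRF2 activity and lies on the minus strand at chr8:108113835-108129934 (GRCm39). Its levels in the 5 livers were 15.8, 14.4, 21.6, 14.9 and 23.3 CPM. In Aldafermin+MYC tumors Nqo1 was at 0.121, 0.322, 1.14, 2.69 and 1.06 CPM, in FGF19+MYC tumors at 1.23, 0.873, 1.66, 1.26 and 2.42 CPM, and in sgTrp53+MYC tumors at 3.27, 0.795, 0.886, 0.612 and 0.352 CPM. No tumor library came near the lowest liver. Nqo1 was 17.1-fold lower in Aldafermin+MYC tumors (log2 fold change -4.10 ± 0.68 SE, adjusted p = 2.44e-05), 12.1-fold lower in FGF19+MYC tumors (-3.59 ± 0.66, adjusted p = 8.06e-05) and 15.2-fold lower in sgTrp53+MYC tumors (-3.93 ± 0.66, adjusted p = 3.1e-05, all by edgeR). The lowest tumor value rests on 5 reads.

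Srxn1 encodes sulfiredoxin, which repairs over-oxidized peroxiredoxins, and lies at chr2:151947436-151957687. Livers had 48.5, 55.9, 61.6, 47.3 and 48.8 CPM of Srxn1. Aldafermin+MYC tumors had 2.47, 1.73, 7.0, 10.9 and 2.16 CPM, FGF19+MYC tumors 1.84, 3.49, 5.24, 5.45 and 10.1 CPM, and sgTrp53+MYC tumors 6.84, 3.88, 6.2, 2.60 and 1.52 CPM. As for Nqo1, the highest tumor stayed far below the lowest liver. The fold differences were 10.8, 9.97 and 12.4 (log2 fold changes -3.44 ± 0.54, -3.32 ± 0.54 and -3.64 ± 0.54 SE, edgeR adjusted p = 1.35e-05, 1.98e-05 and 7.17e-06).

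In each tumor model the library with the most Nqo1 also had the most Srxn1, and it was the library with the most Cyp2e1, a cytochrome P450 of mature hepatocytes. These were Aldafermin+MYC replicate 4, with 836 CPM of Cyp2e1, FGF19+MYC replicate 5, with 1367 CPM, and sgTrp53+MYC replicate 1, with 700 CPM, while livers had 5493 to 11835 CPM. In these 3 libraries Nqo1 was at 14.9%, 13.4% and 18.2% of the liver mean and Srxn1 at 20.8%, 19.3% and 13%, and Cyp2e1 at 9.61%, 15.7% and 8.05%. Alb, the albumin gene, was also highest in the same 3 libraries, at 14253, 17146 and 5417 CPM. So was Clec4f, a marker of resident Kupffer cells, at 36.2, 47.1 and 13.2 CPM, against 135.73 to 189.23 CPM in livers. Below these top libraries the order differed. FGF19+MYC replicate 2, with the next most Cyp2e1 of its group (207 CPM), had the least Nqo1 (0.873 CPM). In Aldafermin+MYC replicate 3, Srxn1 was at 13.4% of the liver mean and Cyp2e1 at 0.158%. The part of remaining liver tissue in the residual levels of Nqo1 and Srxn1 was not tested.

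**Figure D2:**
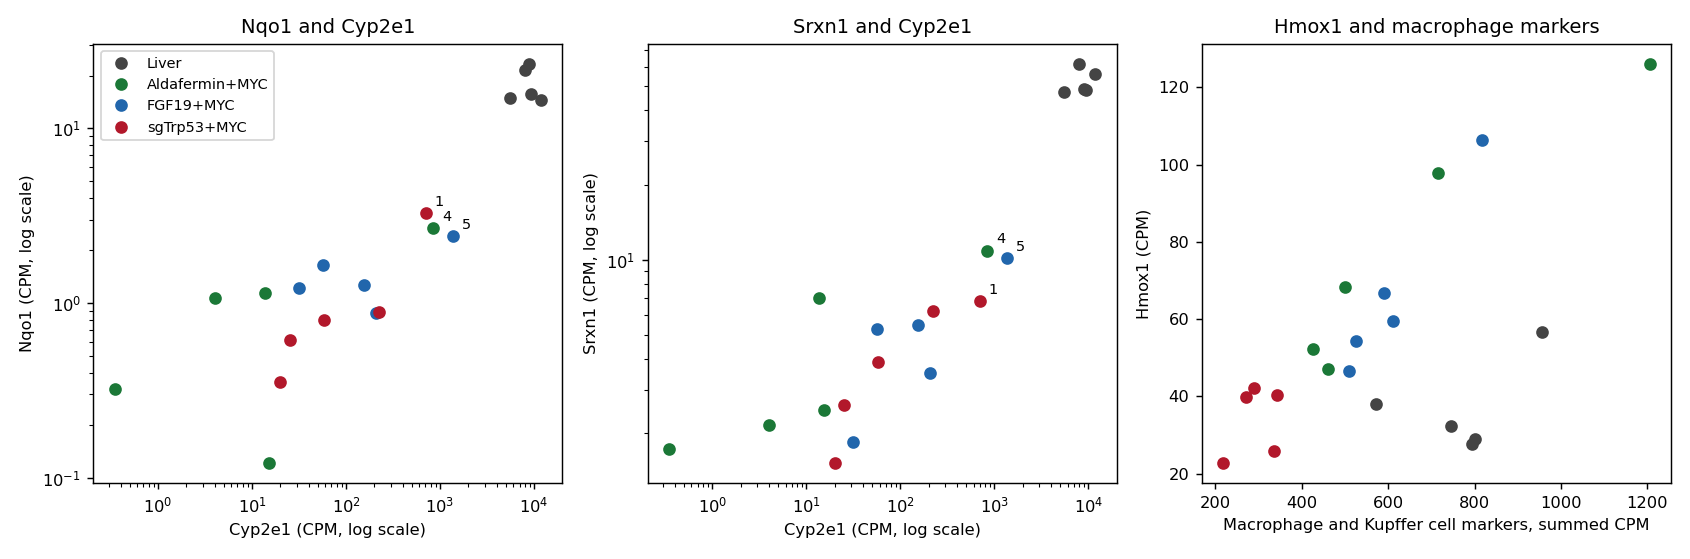
Nqo1 and Srxn1 against Cyp2e1 (left and middle, CPM on log axes) and Hmox1 against the summed CPM of 11 Kupffer cell and macrophage markers (right, linear axes, not starting at 0), one point per library, with the replicate number beside the tumor library richest in Cyp2e1 in each model. The numbered libraries had the most Nqo1 and Srxn1 of their model. All sgTrp53+MYC libraries were lowest in summed macrophage markers, at 219 to 344 CPM.

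Nucleotide sequences around the start sites of 8 of the 10 genes could be read from RefSeq (GRCm38.p6, 250 bases before and 50 after the start). They were searched on both strands for the core of the antioxidant response element, TGACNNNGC, where N is any base. It occurred in 5 of these 8 genes (Nfe2l2, Gclm, Txnrd1, Srxn1 and G6pdx), and in 12.4% of all 32851 windows and 14% of 27025 genes with a window. The windows of Srxn1, Gclm and G6pdx are shown because they hold the core in reverse, on the strand opposite to the gene, and their genes moved in opposite directions, and that of Nqo1 because it moved most and does not hold it. Capitals mark the core as read on the strand of the gene.
Srxn1 (chr2:152105274-152105573, plus strand): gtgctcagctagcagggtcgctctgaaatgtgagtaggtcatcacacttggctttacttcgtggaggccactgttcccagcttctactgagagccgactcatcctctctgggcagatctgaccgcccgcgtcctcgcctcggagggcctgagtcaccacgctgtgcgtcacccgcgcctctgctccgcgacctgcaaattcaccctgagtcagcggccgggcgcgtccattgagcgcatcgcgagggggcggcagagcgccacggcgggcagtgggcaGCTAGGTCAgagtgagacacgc
Gclm (chr3:122245307-122245606, plus strand): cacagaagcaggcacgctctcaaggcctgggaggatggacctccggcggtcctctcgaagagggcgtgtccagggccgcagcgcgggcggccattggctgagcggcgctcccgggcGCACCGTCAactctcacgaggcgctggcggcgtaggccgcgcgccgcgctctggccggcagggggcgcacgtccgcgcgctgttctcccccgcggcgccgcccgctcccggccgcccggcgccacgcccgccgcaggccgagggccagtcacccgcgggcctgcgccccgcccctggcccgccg
G6pdx (chrX:74428831-74429130, minus strand): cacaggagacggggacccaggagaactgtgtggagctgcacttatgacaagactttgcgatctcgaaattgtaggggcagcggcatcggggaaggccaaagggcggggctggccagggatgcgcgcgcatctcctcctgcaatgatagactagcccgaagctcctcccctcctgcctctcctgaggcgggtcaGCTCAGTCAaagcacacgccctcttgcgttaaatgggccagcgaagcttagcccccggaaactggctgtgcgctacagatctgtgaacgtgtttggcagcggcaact
Nqo1 (chr8:107403156-107403455, minus strand): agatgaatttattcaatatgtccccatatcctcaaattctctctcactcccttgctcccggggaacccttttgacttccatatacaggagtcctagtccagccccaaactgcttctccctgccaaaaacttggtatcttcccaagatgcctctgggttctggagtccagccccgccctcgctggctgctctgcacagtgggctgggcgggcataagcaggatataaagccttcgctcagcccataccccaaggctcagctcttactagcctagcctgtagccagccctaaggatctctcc
The core began 134 bases before the start site in Gclm, 57 bases before it in G6pdx and at base 29 after it in Srxn1. For Txnrd1 it was in 1 of 3 windows, also in reverse, 92 bases before the start site. A match describes these letters only, and binding was not measured. The lack of a match covers only the 250 bases before and 50 after the start, since sequence further away was not searched.

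The genes for glutamate-cysteine ligase, the first enzyme of glutathione synthesis, were lower in all tumor models. Gclc encodes its catalytic subunit and lies at chr9:77661797-77701770. Levels of Gclc were 332, 273, 291, 346 and 296 CPM in livers. They were 116, 140, 76.1, 165 and 110 CPM in Aldafermin+MYC tumors, 108, 161, 190, 176 and 152 CPM in FGF19+MYC tumors and 98.2, 102, 97.4, 144 and 107 CPM in sgTrp53+MYC tumors. All 15 tumors were thus below all livers. Gclc fell by 1.34 ± 0.19 (SE), 0.96 ± 0.19 and 1.49 ± 0.19 on the log2 scale in the 3 models (edgeR adjusted p = 3.73e-06, 0.000146 and 9.97e-07).

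Gclm encodes the modifier subunit, which raises the activity of the catalytic one, and lies at chr3:122039126-122065061. Livers had 185, 178, 161, 184 and 169 CPM of Gclm. Levels were 89.9, 71.3, 48.6, 77.7 and 85.8 CPM in Aldafermin+MYC tumors, 66.4, 76.7, 76.9, 83.6 and 72.2 CPM in FGF19+MYC tumors and 115, 98.2, 111, 94.8 and 144 CPM in sgTrp53+MYC tumors. Every tumor was below every liver, and the sgTrp53+MYC tumors lay between the livers and the other tumors. Against Liver, Gclm fell by 1.23 ± 0.15 in Aldafermin+MYC and by 1.22 ± 0.15 in FGF19+MYC tumors (edgeR adjusted p = 5.14e-07 and 5.72e-07). In sgTrp53+MYC tumors it fell by 0.64 ± 0.15 (adjusted p = 0.000741 by edgeR), a value that turned to 0.25 when libraries were scaled to their totals alone. An exon of the gene model Gm6061 shares bases with Gclm on the same strand, and 70 to 99 reads per liver and 214 to 839 per tumor were counted on Gm6061.

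Slc7a11 encodes the cystine importer that feeds glutathione synthesis and lies on the minus strand at chr3:49846975-50398070. The livers had 0, 0, 1, 0 and 0 reads of Slc7a11, at or under a floor of 3 counts per library. Aldafermin+MYC tumors had 0.146, 0.570, 1.06, 0.307 and 0.840 CPM, FGF19+MYC tumors 0.780, 0.654, 0.493, 0.410 and 0.175 CPM, and sgTrp53+MYC tumors 0.115, 3.82, 0.702, 0.489 and 1.13 CPM. By counted reads every tumor was above every liver, yet in most tumors Slc7a11 stayed under 1 CPM. The floor was 0.110 to 0.215 CPM in livers. Aldafermin+MYC replicate 1, FGF19+MYC replicate 5 and sgTrp53+MYC replicate 1 lay within that range, so at the floor the groups were not apart. With livers set to the floor, mean Slc7a11 was at least 3.75-fold higher in Aldafermin+MYC, at least 3.22-fold higher in FGF19+MYC and at least 8.01-fold higher in sgTrp53+MYC tumors. The test below used counted reads, not the floor. Each of the 3 differences in mean CPM had p = 0.00794 in an exact two-sided permutation test, the smallest that 5 against 5 allows, and an adjusted p of 0.0159 over the 6 comparisons. With any 1 liver left out, the sgTrp53+MYC difference had an exact permutation p of 0.0556. Run with no filter on low counts, edgeR called 3, 3 and 2 NRF2 genes higher than in livers, in place of 2, 2 and 1. Slc7a11 was the gene added in each model. The sgTrp53+MYC mean rests on replicate 2, with 274 reads: without it the other 4 libraries averaged 0.610 ± 0.425 CPM (SD). That library also had 190 CPM of Krt19 and 80.6 CPM of Krt7, bile duct keratins that were at no more than 2.33 and 0.265 CPM in the other sgTrp53+MYC tumors. The part of such cells in its Slc7a11 level was not tested.

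Among the other targets, G6pdx rose in all 3 models. It encodes glucose-6-phosphate dehydrogenase, the entry enzyme of the pentose phosphate pathway and a source of NADPH, and lies at chrX:73449857-73472819. G6pdx was at 10.2, 10.6, 20.5, 14.1 and 11.3 CPM in livers. It was at 113, 73.1, 94.7, 97.3 and 80.7 CPM in Aldafermin+MYC tumors, 67.1, 103, 91.8, 95.7 and 74.9 CPM in FGF19+MYC tumors and 65.5, 82.6, 70.4, 74.8 and 76.4 CPM in sgTrp53+MYC tumors. The lowest tumor was well above the highest liver. G6pdx was 6.88-fold, 6.49-fold and 5.54-fold higher (log2 fold change 2.78 ± 0.19, 2.70 ± 0.19 and 2.47 ± 0.19 SE, edgeR adjusted p = 2.05e-10, 2.96e-10 and 8.55e-10).

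Txnrd1 encodes the cytosolic thioredoxin reductase and lies at chr10:82669785-82733546. Its levels were 198, 205, 231, 161 and 194 CPM in livers. Aldafermin+MYC tumors had 180, 182, 168, 158 and 154 CPM, FGF19+MYC tumors 134, 226, 214, 212 and 199 CPM, and sgTrp53+MYC tumors 119, 147, 140, 158 and 173 CPM. The groups overlapped. Txnrd1 fell by 0.42 ± 0.14 in sgTrp53+MYC tumors (edgeR adjusted p = 0.013), which was no longer called without Aldafermin+MYC replicate 5 (adjusted p = 0.0564 by edgeR). In Aldafermin+MYC and FGF19+MYC tumors the log2 fold change was -0.23 ± 0.14 and -0.01 ± 0.14 (edgeR adjusted p = 0.156 and 0.967). The Aldafermin+MYC value was called by DESeq2 (-0.32, adjusted p = 0.0215) and by edgeR with RLE factors (adjusted p = 0.0401). With library totals alone all 3 values were positive, at 0.61, 0.85 and 0.46.

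Hmox1 encodes heme oxygenase 1, which breaks down heme and is abundant in macrophages, and lies at chr8:75820241-75827217. Livers had 32.2, 37.9, 27.5, 56.6 and 28.9 CPM of Hmox1. Its levels were 47.1, 68.2, 126, 97.8 and 52.1 CPM in Aldafermin+MYC tumors, 46.6, 66.6, 59.4, 54.3 and 106 CPM in FGF19+MYC tumors and 25.8, 22.7, 40.2, 42.1 and 39.7 CPM in sgTrp53+MYC tumors. The first 2 models overlapped with the highest liver only, and sgTrp53+MYC tumors lay within or just below the liver range. Hmox1 was 2.14-fold higher in Aldafermin+MYC tumors than in livers (1.10 ± 0.29 on the log2 scale, edgeR adjusted p = 0.00249) and 1.82-fold higher in FGF19+MYC tumors (0.87 ± 0.29, edgeR adjusted p = 0.0125). The latter was not called without FGF19+MYC replicate 5 (0.63, edgeR adjusted p = 0.0548). In sgTrp53+MYC tumors the log2 fold change was -0.10 ± 0.29 (edgeR adjusted p = 0.767), and 0.81 with library totals alone. Of 11 Kupffer cell and macrophage markers, 3 were higher and 5 lower than in livers with Aldafermin+MYC, 1 and 3 with FGF19+MYC, and 1 and 10 with sgTrp53+MYC. Among all genes, 38.4% were higher and 31.9% lower with Aldafermin+MYC, 36.9% and 32.9% with FGF19+MYC, and 36.9% and 33% with sgTrp53+MYC. The part of macrophages in the Hmox1 difference from livers was not tested.

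Of the regulators, Keap1 lies on the minus strand at chr9:21141026-21150679. It was at 101, 94.5, 91.9, 92.0 and 86.2 CPM in livers, 65.1, 60.9, 67.1, 61.5 and 53.0 CPM in Aldafermin+MYC tumors, 47.4, 69.7, 64.7, 50.1 and 68.3 CPM in FGF19+MYC tumors and 63.8, 69.3, 74.8, 73.2 and 81.8 CPM in sgTrp53+MYC tumors. All tumors were below all livers. On the TMM scale Keap1 fell by 0.60 ± 0.12, 0.63 ± 0.12 and 0.36 ± 0.12 (edgeR adjusted p = 0.000167, 9.4e-05 and 0.0107), whereas with library totals alone the values were 0.25, 0.22 and 0.53. The last of the 3 calls was lost without Aldafermin+MYC replicate 5 (adjusted p = 0.0517 by edgeR).

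Nfe2l2, on the minus strand at chr2:75504739-75534985, was at 84.5, 97.3, 110, 78.6 and 84.2 CPM in livers. Its levels were 58.2, 72.7, 78.7, 85.7 and 44.5 CPM in Aldafermin+MYC tumors, 54.8, 82.3, 89.2, 95.7 and 87.1 CPM in FGF19+MYC tumors and 54.8, 68.3, 87.5, 58.8 and 72.3 CPM in sgTrp53+MYC tumors. Every tumor group overlapped with the livers. The log2 fold change was -0.42 ± 0.18 in Aldafermin+MYC (edgeR adjusted p = 0.0464), -0.15 ± 0.18 in FGF19+MYC (adjusted p = 0.467) and -0.41 ± 0.18 in sgTrp53+MYC tumors (adjusted p = 0.0511). The last was called by DESeq2 (adjusted p = 0.0203) and by edgeR with RLE factors, a minimum of 10 CPM or the correction for GC content and length (adjusted p = 0.0262, 0.0394 and 0.0288). The Aldafermin+MYC value was not called in 10 of 20 fits that left out 1 library, with the highest adjusted p, 0.20, by edgeR without Aldafermin+MYC replicate 5. With library totals alone all 3 values were positive, at 0.44, 0.70 and 0.48.

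The small differences depend on the scaling. Alb alone was at 147310 to 176910 CPM in livers, and the TMM factors set such libraries apart from their totals. With library totals in place of TMM factors, the median log2 fold change of all genes against Liver moved to 0.98, 0.91 and 0.95. Of the NRF2 genes called, 3 were then higher and 4 lower with Aldafermin+MYC, and 4 higher and 3 lower with FGF19+MYC and with sgTrp53+MYC, while the share of higher genes among all calls went from 54.6%, 52.9% and 52.8% to 78.2%, 77.3% and 77.9%. Keap1, at 0.25, 0.22 and 0.53, stayed below that median, and the signs of Nqo1, Srxn1, Gclc and G6pdx were the same under both scalings, though Gclc in FGF19+MYC tumors was no longer called (-0.11, edgeR adjusted p = 0.649).

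**Figure D3:**
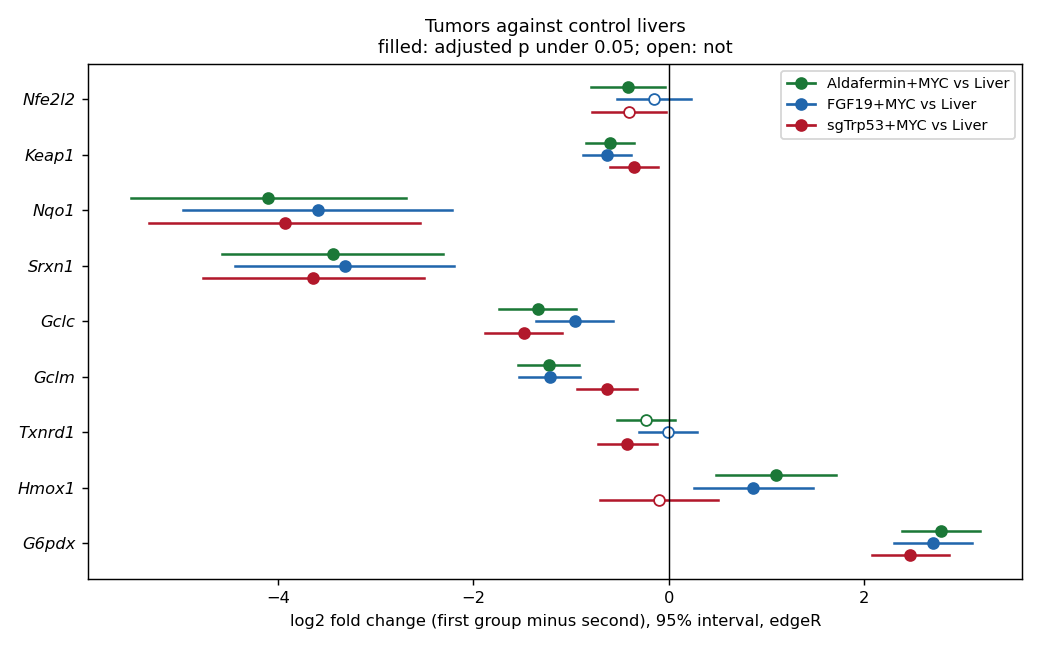
Log2 fold change of each tested NRF2 gene in the 3 tumor models against livers (points) with 95% intervals from edgeR, filled where the adjusted p is under 0.05. Nqo1 and Srxn1 lay between -4.10 and -3.32, G6pdx between 2.47 and 2.78. The signs of Keap1, Nfe2l2 and Txnrd1, and of Gclm and Hmox1 in sgTrp53+MYC tumors, turned when libraries were scaled to their totals alone.

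As CPM per kilobase of annotated exons, the order of levels in livers was Gclc (49.1 ± 4.85 SD), Txnrd1 (27.9 ± 3.52), Gclm (22 ± 1.30), Hmox1 (20.8 ± 6.75), Nfe2l2 (16.6 ± 2.32), Keap1 (16.4 ± 0.964), Nqo1 (6.55 ± 1.51), Srxn1 (5.58 ± 0.653), G6pdx (2.06 ± 0.664) and Slc7a11 (0.000569 ± 0.00127). Neighbours in the pairs Gclm and Hmox1, Hmox1 and Nfe2l2, Nfe2l2 and Keap1, and Nqo1 and Srxn1 differed by less than the larger of their SDs. In Aldafermin+MYC tumors the order was led by Hmox1 (44.5 ± 18.9), Txnrd1 (23.8 ± 1.79) and Gclc (19.4 ± 5.33), and G6pdx (14.2 ± 2.41) stood at place 4 in place of 9, within the larger SD of Gclc above it and of Nfe2l2 below it (12.4 ± 3.04). In FGF19+MYC and sgTrp53+MYC tumors G6pdx stood at places 5 and 7. In sgTrp53+MYC tumors Txnrd1 (20.8 ± 2.83) and Hmox1 (19.4 ± 5.18) led, within their SD of each other. The lengths come from all exons of a gene and not from the isoforms in use.

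Setting Aldafermin+MYC against FGF19+MYC tumors asks whether the analog and the hormone, each combined with MYC, leave the same NRF2 profile. None of the 9 tested genes was called, nor was any of the 14333 genes (0% by edgeR, with 1048 genes, 7.31%, at an unadjusted p under 0.05, 96 by DESeq2 and 59 by edgeR's likelihood ratio test, none of them an NRF2 gene). All 9 genes overlapped between the groups, as did Slc7a11, and 1.46% of all genes did not. The intervals of the difference were narrow for some genes and wide for others. For Gclm the log2 fold change was -0.01, with a 95% interval of -0.32 to 0.30, and for Keap1 0.04, from -0.21 to 0.28. For G6pdx it was 0.09, from -0.29 to 0.46, and for Txnrd1 -0.22, from -0.52 to 0.07. For Gclc it was -0.38, from -0.76 to 0.01, and for Nfe2l2 -0.27, from -0.65 to 0.11. For Hmox1 it was 0.23, from -0.37 to 0.83, and for Srxn1 -0.12, from -1.17 to 0.92. Nqo1, at -0.50, had the widest interval, from -1.80 to 0.80. All 9 intervals included 0, so the direction is not known for any of these genes.

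Between the FGF19-type tumors and sgTrp53+MYC tumors, Hmox1 and Gclm differed in opposite directions. In Aldafermin+MYC against sgTrp53+MYC tumors, 2 of 9 genes were called (17.7% of all genes) and these 2 did not overlap (9.75% of all genes). In FGF19+MYC against sgTrp53+MYC tumors the same 2 genes were called (15.8%) and did not overlap (10.9%). Both comparisons share the sgTrp53+MYC libraries. Hmox1 was 2.29-fold higher in Aldafermin+MYC tumors (1.20 ± 0.29 on the log2 scale, edgeR adjusted p = 0.00832) and 1.95-fold higher in FGF19+MYC tumors (0.97 ± 0.29, edgeR adjusted p = 0.0295). Gclm was 1.51-fold lower in Aldafermin+MYC tumors (-0.59 ± 0.15, edgeR adjusted p = 0.00923) and 1.5-fold lower in FGF19+MYC tumors (-0.58 ± 0.15, edgeR adjusted p = 0.0113). For the other 7 tested genes the difference was not called in the main edgeR fit. In FGF19+MYC against sgTrp53+MYC tumors the log2 fold change was 0.52 for Gclc (edgeR adjusted p = 0.0623) and 0.42 for Txnrd1 (adjusted p = 0.0541), and in Aldafermin+MYC against sgTrp53+MYC tumors 0.15 and 0.19 (adjusted p = 0.629 and 0.38 by edgeR). For Keap1 it was -0.24 in Aldafermin+MYC and -0.27 in FGF19+MYC tumors, for Nfe2l2 -0.01 and 0.26, for G6pdx 0.31 and 0.23, for Srxn1 0.20 and 0.32 and for Nqo1 -0.17 and 0.33, the last with intervals of -1.45 to 1.11 and -0.94 to 1.61. DESeq2 called Keap1 in both comparisons (adjusted p = 0.03316 and 0.03325). In FGF19+MYC against sgTrp53+MYC tumors it also called Gclc and Txnrd1 (adjusted p = 0.0416 and 0.0143). There edgeR with a minimum of 10 CPM called Gclc and Txnrd1 too (adjusted p = 0.0491 and 0.0352). Txnrd1 was also called there with RLE and upper quartile factors (edgeR adjusted p = 0.0472 and 0.03255). For Slc7a11 no difference in mean CPM between tumor models passed the test (exact two-sided permutation test, adjusted p = 0.562 and 0.488 against sgTrp53+MYC tumors and 0.683 between the other models).

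**Figure D4:**
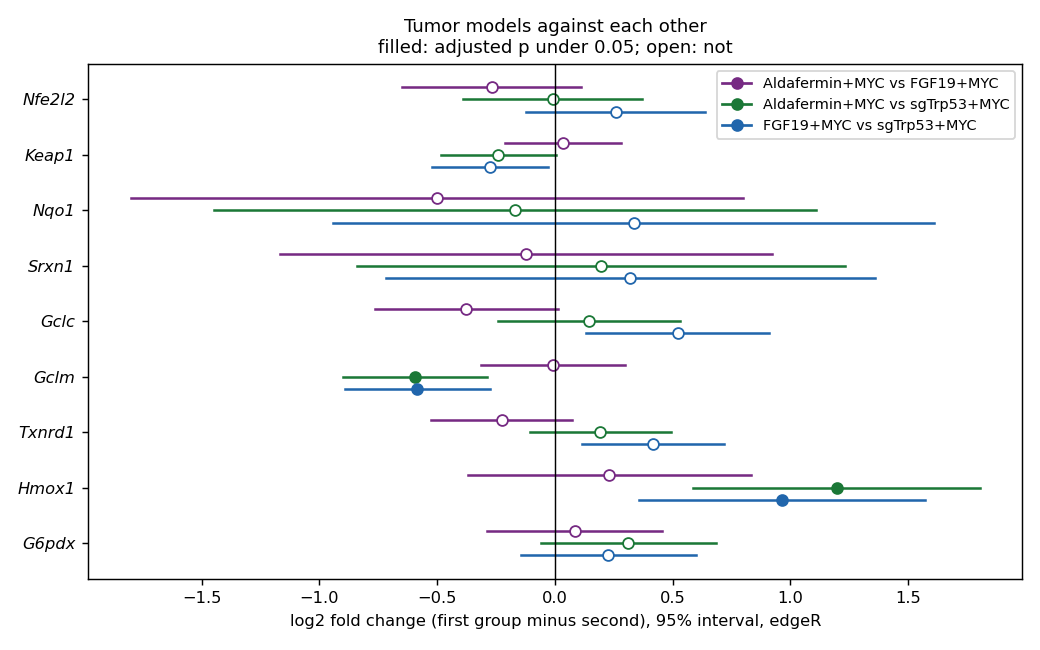
Log2 fold change of each tested NRF2 gene between tumor models (points) with 95% intervals from edgeR, filled where the adjusted p is under 0.05. Filled points were Hmox1 (1.20 and 0.97) and Gclm (-0.59 and -0.58) against sgTrp53+MYC tumors, and neither was filled between Aldafermin+MYC and FGF19+MYC tumors.

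Both differences moved with other measured properties of the libraries. Across genes, log2 fold changes of Aldafermin+MYC against sgTrp53+MYC tumors correlated with GC content (Spearman's rho = 0.316 over 13861 genes, which are not independent replicates) and those of FGF19+MYC against sgTrp53+MYC tumors likewise (0.282). GC content is 53.3% in Hmox1 exons and 43% in Gclm exons. After correction for GC content and length, Hmox1 was at 0.88 and 0.69 (edgeR adjusted p = 0.056 and 0.136) and Gclm at -0.33 and -0.36 (adjusted p = 0.0895 and 0.0696), so that neither gene was called. The Gclm call in Aldafermin+MYC against sgTrp53+MYC tumors was also lost when only these groups were fitted (edgeR adjusted p = 0.0595). In the fit corrected for GC content Keap1 was called against both (-0.39 and -0.43, edgeR adjusted p = 0.0283 and 0.0161), as were Gclc (0.61, adjusted p = 0.0225) and Txnrd1 (0.45, adjusted p = 0.0124) in FGF19+MYC against sgTrp53+MYC tumors.

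Macrophage markers differed between these models too. The summed level of 11 Kupffer cell and macrophage markers, led by Cd5l, was 219 to 344 CPM in sgTrp53+MYC tumors, 426 to 1205 CPM in Aldafermin+MYC tumors, 509 to 818 CPM in FGF19+MYC tumors and 573 to 955 CPM in livers. Of these markers, 7 of 11 were higher in Aldafermin+MYC than in sgTrp53+MYC tumors (10.2% of all genes) and 4 of 11 in FGF19+MYC than in sgTrp53+MYC tumors (7.97%). None was lower (7.53% and 7.78% of all genes). The Aldafermin+MYC tumor with the most Hmox1 (126 CPM, replicate 3) also had the most C1qb, a complement gene of macrophages (273 CPM), and the FGF19+MYC tumor with the most Hmox1 (106 CPM, replicate 5) had the most C1qb of its group (120 CPM). In sgTrp53+MYC tumors it was the reverse: replicate 4, with the most Hmox1 (42.1 CPM), had the least C1qb (42.7 CPM). Clec4f, also among the 11 markers, was highest in Aldafermin+MYC replicate 4 (36.2 CPM), with 1.89 CPM in replicate 3. Livers, with more of these markers in sum than sgTrp53+MYC tumors, had Hmox1 levels that overlapped with theirs (27.5 to 56.6 against 22.7 to 42.1 CPM). The part of macrophages in the Hmox1 difference was not tested. In FGF19+MYC against sgTrp53+MYC tumors the Hmox1 call was lost without FGF19+MYC replicate 2 or 5 or sgTrp53+MYC replicate 1 or 2 (edgeR adjusted p = 0.0536, 0.0995, 0.0554 and 0.0702).

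To place these genes in their pathway, 60 further genes in 6 lists were examined, of which 59 were tested and Gpx2 was not. Against livers, 14 were higher and 30 lower in Aldafermin+MYC tumors, 11 and 31 in FGF19+MYC tumors, and 13 and 33 in sgTrp53+MYC tumors, with median log2 fold changes of -0.48, -0.65 and -0.59. In all, 74.6%, 71.2% and 78% of the 59 were called, beside 70.3%, 69.7% and 69.9% of all genes. By direction, 38.4%, 36.9% and 36.9% of all genes were higher and 31.9%, 32.9% and 33% lower. These shares also stand beside the counts of each list below. With library totals alone the split was 24 higher and 22 lower, 23 and 21, and 24 and 20. Genes named below are the called genes with the highest and lowest log2 fold change of each list, in the order Aldafermin+MYC, FGF19+MYC and sgTrp53+MYC tumors, by edgeR.

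Among 10 regulators and partners of NRF2, 3 were higher in each model and 4, 4 and 5 lower. Maff, a small MAF partner, rose by 1.73, 1.98 and 1.36, from 8.78 CPM in livers to means of 29.0, 34.7 and 22.5 CPM. Sqstm1, which encodes the KEAP1-binding autophagy receptor p62, fell by 2.28, 1.95 and 2.39, from 633 CPM in livers to 131, 164 and 121 CPM. Among 8 tested glutathione genes, 3 were higher in each model and 3, 3 and 4 were lower. Ggt1, the gamma-glutamyl transferase that splits extracellular glutathione, rose most, from 0.0732 to 0.409 CPM in livers to 135 to 253 CPM in the 15 tumors (9.62, 9.66 and 9.58 on the log2 scale). Oplah, which encodes 5-oxoprolinase, fell by 4.13 in Aldafermin+MYC and by 4.13 in FGF19+MYC tumors, and Gpx1, a glutathione peroxidase, fell by 3.04 in sgTrp53+MYC tumors.

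Of 11 thioredoxin and peroxiredoxin genes, 1 was higher in Aldafermin+MYC tumors (Prdx3, a mitochondrial peroxiredoxin, 0.46 with edgeR adjusted p = 0.0162) and none in the other models, while 4, 5 and 4 were lower. Prdx5 was the lowest, at -1.65, -1.78 and -1.52. Beside G6pdx, 6 other genes of NADPH supply split in direction. Pgd, which follows G6pdx in the pentose phosphate pathway, rose by 1.46, 1.48 and 1.19. Me1, the cytosolic malic enzyme, fell by 4.01 in Aldafermin+MYC and by 4.22 in FGF19+MYC tumors, and Idh1, an isocitrate dehydrogenase, fell by 2.55 in sgTrp53+MYC tumors.

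The 18 genes of conjugation, reduction and export were mostly low, with 11, 11 and 12 lower, 3, 2 and 4 higher, and medians of -2.07, -1.99 and -2.0. Aox1, an aldehyde oxidase, fell by 5.05, 4.97 and 5.33, and Abcc1, an exporter of glutathione conjugates, rose by 2.85, 3.03 and 3.08. The glutathione S-transferases of this list have near-identical copies, and their counts are uncertain. Of 6 heme and iron genes, 5 were lower and 1 was higher in each model. Blvra, a biliverdin reductase that acts after heme oxygenase, rose by 1.19, 1.11 and 1.16, and Blvrb, another biliverdin reductase, fell by 2.70, 2.42 and 2.79.

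**Figure D5:**
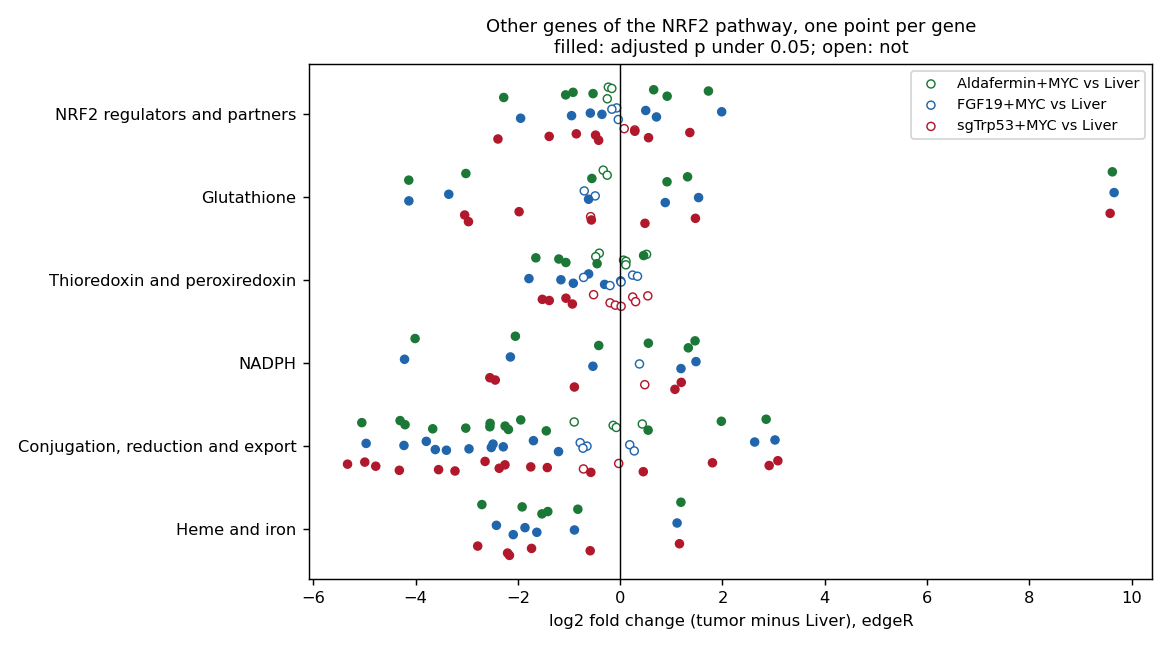
Log2 fold change against livers of the 59 tested genes in 6 lists of the NRF2 pathway, one point per gene and tumor model, filled where the edgeR adjusted p is under 0.05. Ggt1 stood alone near 9.6, and the conjugation list had medians of -2.07, -1.99 and -2.0.

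Between tumor models, none of the 59 genes was called in Aldafermin+MYC against FGF19+MYC tumors. Against sgTrp53+MYC tumors, 3 were higher (Ftl1, Taldo1 and Dpp3, with 10.2% of all genes) and 4 lower (Ugdh, Cbr3, Me1 and Cul3, 7.53%) with Aldafermin+MYC, and 2 were higher (Ftl1 and Abcc2, 7.97%) and the same 4 lower (7.78%) with FGF19+MYC. These genes were named after their values were seen, and Ftl1, a ferritin gene, has near-identical copies that make its counts uncertain. The largest difference with no overlap was at Me1, with 85.0 to 106 CPM in sgTrp53+MYC tumors, 15.8 to 48.9 CPM in Aldafermin+MYC and 10.6 to 39.8 CPM in FGF19+MYC tumors (log2 fold changes -1.57 and -1.77, edgeR adjusted p = 0.0038 and 0.0018). Cbr3, a carbonyl reductase, rests on sgTrp53+MYC replicate 1, at 30.4 CPM, with the other 4 at 0.925 to 3.78 CPM. Cul3, the ubiquitin ligase scaffold that KEAP1 recruits, was at a mean of 74.9 and 75.0 CPM in the first 2 models and 102 CPM in sgTrp53+MYC tumors.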

How the data were processed

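The authors made stranded mRNA libraries (bcl2fastq 2.20.0.422 per the labels), aligned reads with HISAT2 to mm39 and counted them per RefSeq gene with htseq-count. The deposited values are these raw counts of 20 libraries in 2 tables, without normalization, and 5 summary lines were left out. The strand setting and the HISAT2 version are not given in the sources used here. Unstranded counting cannot tell Nfe2l2, Keap1, Gclm, Srxn1 and G6pdx from genes overlapping them on the other strand. P-values measure the spread between libraries, 1 per mouse.

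Genes reaching 1 CPM or more in 5 or more libraries were fitted in 1 model of 4 groups with edgeR 4.0.16 (R 4.3.3, TMM factors, quasi-likelihood test), adjusted by Benjamini-Hochberg over 14333 genes with a threshold of 0.05, for 6 comparisons. The test was checked on simulated counts. Slc7a11 had an exact two-sided permutation test. The replicate numbers did not pair the samples. Within each group, no library was a copy of another, and pairs across groups were not checked. Coordinates, exon lengths and GC content (96.7% of genes tested) are from GENCODE M39 (GRCm39). Depth limits low genes: counts of 3 or fewer per library in a group were taken as a floor, which covers counting error only.

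Named were all 10 members, the highest and lowest called gene of each pathway list in each comparison with Liver, the most abundant gene of each marker list, and Trp53. Cyp2e1, Clec4f, C1qb and Krt7 were named after their values were seen. Members and lists were chosen with earlier results of these data known. Alternatives were DESeq2 1.42.0, edgeR's likelihood ratio test, other size factors and filters, only the compared groups, the replicate number as a block, correction for GC content and length (mgcv 1.9.3), and each library left out in turn.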

Additional observations from a re-analysis of the deposited data

Results flagged for a closer look

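Among 39 sets of 5 libraries checked for a library far from the others (1 in 20 would be marked by chance), 3 had one, all in sgTrp53+MYC tumors. Nqo1 was at 3.27 CPM in replicate 1, with a gap to the next library of 0.817 of the group's range. Gclc was at 144 CPM in replicate 4, with a gap of 0.793 of the range. Slc7a11 was at 3.82 CPM in replicate 2, with a gap of 0.725 of the range.

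The difference from livers itself differed between tumor models for Hmox1 and Gclm, tested as the contrast between models with edgeR. For Hmox1 the contrast with sgTrp53+MYC tumors was 1.20 on the log2 scale in Aldafermin+MYC tumors (higher in 5 of 5) and 0.97 in FGF19+MYC tumors (higher in 5 of 5). For Gclm it was -0.59 and -0.58 (lower in 5 of 5 in both). All 4 contrasts compare libraries of different tables, and none was called after correction for GC content and length.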

How the results depend on the processing

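A minimum of 10 CPM left Nqo1 untested. Wherever tested, Nqo1, Srxn1 and G6pdx kept their direction and call against livers in all 3 models under every alternative, including each library left out. The fit without the 3 libraries richest in Cyp2e1 is no check of this for Nqo1 and Srxn1, since these were also the highest tumor libraries for both. Scaling by library totals turned the log2 fold change against Liver of Nfe2l2 (0.44, 0.70 and 0.48 in Aldafermin+MYC, FGF19+MYC and sgTrp53+MYC tumors), Keap1 (0.25, 0.22 and 0.53), Txnrd1 (0.61, 0.85 and 0.46) and, in sgTrp53+MYC tumors, Hmox1 (0.81) and Gclm (0.25), as the median of all genes moved too. Other sign changes were of values not called. Against Liver, with no filter on low counts, Nfe2l2 was at 0.024 and Txnrd1 at 0.17 in FGF19+MYC and Hmox1 at 0.18 in sgTrp53+MYC tumors, where the median of all genes was 0.33 and Keap1, Gclm and Txnrd1 were not called. Nfe2l2 in Aldafermin+MYC tumors was not called against Liver with no filter, upper quartile factors, only the compared groups or the GC correction (adjusted p from 0.0596 to 0.28 by edgeR), nor were Keap1 and Txnrd1 in sgTrp53+MYC tumors with only the compared groups (0.0763 and 0.0809). Hmox1 in sgTrp53+MYC tumors was at 0.027 with only the compared groups and at 0.34 with the correction for GC content and length. Between Aldafermin+MYC and FGF19+MYC tumors, Gclm was at 0.011 with a minimum of 10 CPM and 0.027 with the GC correction. Between Aldafermin+MYC and sgTrp53+MYC tumors, Nfe2l2 was at 0.00013 with upper quartile factors, 0.00079 with a minimum of 10 CPM and 0.089 with the GC correction, which put Nqo1 at 0.097, and without the 3 libraries richest in Cyp2e1 Gclc was at -0.026 and Srxn1 at -0.088. The cause was not tested.

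For Aldafermin+MYC against FGF19+MYC tumors, DESeq2 called 96 genes, the likelihood ratio test 59, RLE factors 2 and the fit without the 3 libraries richest in Cyp2e1 18, in place of 0, and none was an NRF2 gene. With only the compared groups, the calls against sgTrp53+MYC tumors were 1076 genes, 1 NRF2 gene and 4 pathway genes for Aldafermin+MYC, in place of 2534, 2 and 7, and 1342 genes and 3 pathway genes for FGF19+MYC, in place of 2258 and 6. The GC correction left 1 NRF2 gene, Keap1, for Aldafermin+MYC. For FGF19+MYC the NRF2 calls were 5 by DESeq2, 4 with a minimum of 10 CPM, and 1 with library totals, with no filter and without the 3 libraries richest in Cyp2e1, in place of 2. With no filter the share of higher genes among calls against sgTrp53+MYC tumors went from 57.4% to 43.6% for Aldafermin+MYC and from 50.6% to 37.9% for FGF19+MYC. In FGF19+MYC tumors without those 3 libraries, Hmox1 was not called against Liver (0.63, adjusted p = 0.0536 by edgeR) or sgTrp53+MYC tumors (0.65, adjusted p = 0.158 by edgeR).

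With 1 library left out in turn, calls in Aldafermin+MYC against FGF19+MYC tumors ranged from 0 to 29 genes (29 without Aldafermin+MYC replicate 4), and in FGF19+MYC against sgTrp53+MYC tumors from 1 to 4 NRF2 genes (4 without FGF19+MYC replicate 1) and from 3 to 7 pathway genes (3 without FGF19+MYC replicate 3 or 5). NRF2 calls against Liver ranged from 7 to 8, 6 to 7 and 5 to 8. Values that changed sign were, against Liver, Txnrd1 in FGF19+MYC (-0.084 to 0.11) and Hmox1 in sgTrp53+MYC tumors (-0.20 to 0.098). In Aldafermin+MYC against FGF19+MYC tumors they were Keap1 (-0.037 to 0.095), Hmox1 (-0.0068 to 0.46), Gclm (-0.083 to 0.11), Srxn1 (-0.65 to 0.26), G6pdx (-0.00054 to 0.16) and the Slc7a11 difference (-0.037 to 0.19 CPM). Against sgTrp53+MYC tumors they were Nfe2l2 (-0.10 to 0.095), Nqo1 (-0.83 to 0.66) and Srxn1 (-0.33 to 0.44) for Aldafermin+MYC and Srxn1 (-0.063 to 0.56) for FGF19+MYC. The Slc7a11 difference between sgTrp53+MYC tumors and livers had an exact permutation p of 0.0556 without any 1 liver.

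The replicate numbers pair no samples: correlations of deviations between same-numbered libraries ranged from -0.333 to 0.333. With the replicate number as a block, NRF2 calls against Liver were 8, 7 and 8, those between tumor models 0, 2 and 3, with Nfe2l2 in sgTrp53+MYC tumors against Liver (adjusted p = 0.0272 by edgeR) and Gclc in FGF19+MYC against sgTrp53+MYC tumors (adjusted p = 0.0499 by edgeR) called in addition. No other NRF2 call changed. Depth limits Nqo1 and Slc7a11 in tumors, at 5 to 199 and 5 to 274 reads per library.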
